A study of Mus musculus with 32 samples.

Results

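The respiratory chain subunits described here are 95 genes, of 33654 genes per table. They were taken by name: 82 nuclear genes with the symbols of subunits of complexes I to V, and the 13 mRNAs of the mitochondrial genome. The nuclear set held 36 genes of complex I, 4 of complex II, 9 of complex III, 17 of complex IV and 16 of complex V. The mitochondrial set held 7 mRNAs of complex I (ND1 to ND6 and ND4L), 1 of complex III (CYTB), 3 of complex IV (COX1 to COX3) and 2 of complex V (ATP6 and ATP8). Ndufa4 was placed with complex I by its name, although the protein is now assigned to complex IV, and Atp5s is a factor linked to the ATP synthase by name, not a structural subunit. All 95 had a row in each of the 4 tables of RNA-seq levels.

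The libraries came from the MMTV-PyMT mouse model of breast cancer, in which the mouse mammary tumor virus promoter drives the polyoma middle T antigen in mammary epithelium. Tumor cells were sampled at week 2 (3 libraries), week 3 (4 libraries) and week 4 (4 libraries) of tumor development, and CD8 T cells from the tumors at the same weeks (3 libraries each). In a further experiment, tumor cells and CD8 T cells were taken from xenografts of MMTV-PyMT cells carrying a control hairpin (shCTRL, labelled WT) or a hairpin against Mogat1 (shMogat1, labelled Mogat1 knockdown), with 3 libraries in each of the 4 groups. All 32 libraries therefore share the MMTV-PyMT background, and mouse strain, age and the number of clones or hairpins are not given in the sources used here. Nothing in the labels says that the replicates were separate animals or cultures, so the p-values below measure only the spread between these libraries.

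The respiratory chain sits in the inner mitochondrial membrane. Complexes I and II take electrons from NADH and succinate, complex III passes them to cytochrome c, complex IV hands them to oxygen, and complex V uses the resulting proton gradient to make ATP. Complexes I, III, IV and V are built from subunits of both the nuclear and the mitochondrial genome, and complex II from nuclear subunits only, so assembly of the chain needs products of 2 genomes that are transcribed by different polymerases. Tumor cells draw on oxidative phosphorylation alongside glycolysis, and activated T cells raise both when they divide.

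Several mitochondrial mRNAs cannot be separated by sequence from copies in the nuclear genome, which is shown first because it bears on every mitochondrial level below. In the mouse assembly GRCm38 (mm10, the build the submitters' processing notes name), GENCODE M21 annotates unprocessed pseudogenes on chromosome 1 that repeat a stretch of the mitochondrial genome. The COX2 mRNA matched Gm28661 (chr1:24614885-24615565) over 681 bases at 100% identity. ATP6 matched Gm10925 (chr1:24613974-24614651) over 678 bases, COX3 matched Gm28437 (chr1:24613189-24613971) over 783 bases and ND4L matched Gm10222 (chr1:24612407-24612700) over 294 bases, each at 100% identity. ND3 matched Gm28438 (chr1:24612775-24613119) over 345 bases with 1 mismatch. The first 60 bases of ND3, COX2 and ATP6 are set beside their copies, with the mismatched base in capitals.
ND3: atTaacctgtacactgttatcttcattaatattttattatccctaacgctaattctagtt
Gm28438: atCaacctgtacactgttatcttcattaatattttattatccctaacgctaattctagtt
COX2: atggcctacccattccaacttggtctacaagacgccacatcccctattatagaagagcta
Gm28661: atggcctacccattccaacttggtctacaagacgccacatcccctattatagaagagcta
ATP6: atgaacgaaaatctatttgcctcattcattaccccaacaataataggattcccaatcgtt
Gm10925: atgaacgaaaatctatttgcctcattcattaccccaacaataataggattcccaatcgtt

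A near-identical copy (at least 98% identity over at least 80% of the longest annotated coding transcript) was found for 5 of the 13 mitochondrial mRNAs and for 0 of the 82 nuclear ones. ATP8 overlaps the start of ATP6 and shared 43 bases with the same copy, Gm10925. Only annotated transcripts were searched, so a copy of the rest of ATP8 outside them would not have been found. The first 876 bases of ND4, which are 63.57% of it, matched Gm28439. COX1 had its best match on chromosome 2 (Gm13340) at 97.6% identity, CYTB on chromosome 4 at 92.9%, and no match was found for ND1. The 11 distinct copies found for mitochondrial mRNAs have 0 rows of their own in the tables. Shorter parts of some nuclear members also matched processed pseudogenes at 98% identity or more. These covered 75.72% of the Ndufs3 transcript, 71.11% of Atp5h and 62.8% of Uqcrb, and 390 bases of Ndufb4 at 100% identity. ATP6, ATP8, COX2, COX3, ND3 and ND4L ran from 4.32 to 879 TPM (a level scaled by transcript length and by the library's total) over the 32 libraries, and the other 7 mitochondrial mRNAs from 1859 to 63466 TPM. The ranges did not overlap, although the mitochondrial genome is transcribed from few promoters into long precursors. How the authors treated reads that map to both places is not given in the sources used here, and the part of the copies in these levels was not tested. All mitochondrial values below carry that limit, and so do those of nuclear members with partial copies, such as Uqcrb.

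**Figure D1:**
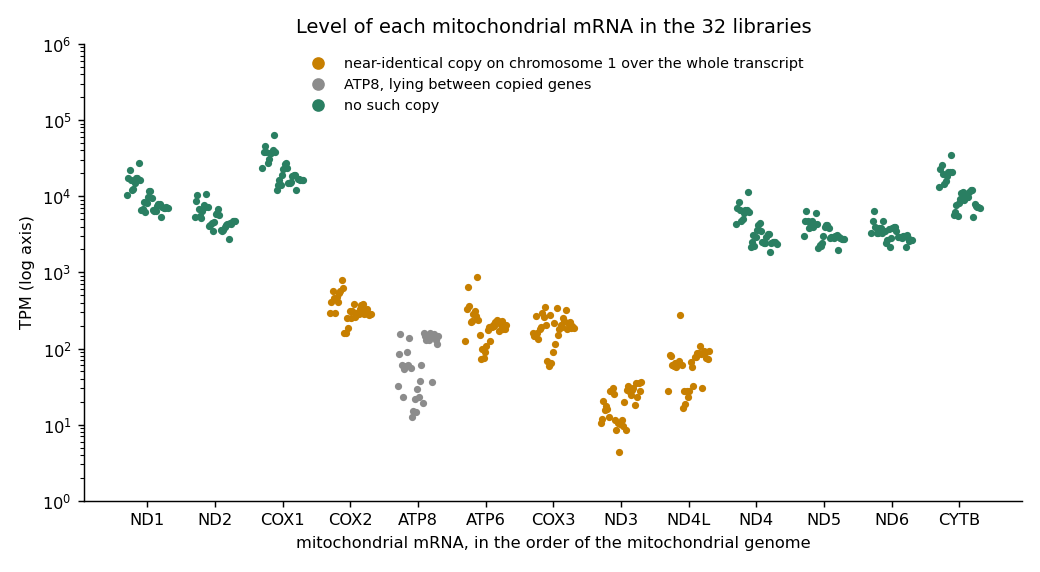
Level of each mitochondrial mRNA in the 32 libraries, in TPM on a log axis, with the mRNAs in genome order; each point is 1 library, orange marks mRNAs with a near-identical copy on chromosome 1, grey marks ATP8 and green the others. The orange and grey points lie between 4.32 and 879 TPM and the green points between 1859 and 63466 TPM.

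The chain made up a large part of the measured transcripts. The 13 mitochondrial mRNAs summed to 9.80% ± 3.18 of all TPM (SD, n = 3) in week 2 tumor cells, 8.46% ± 1.18 (n = 4) at week 3 and 11.5% ± 3.09 (n = 4) at week 4. In CD8 T cells they summed to 4.05% ± 0.571 at week 2, 4.86% ± 1.18 at week 3 and 6.61% ± 0.592 at week 4 (SD, n = 3 each). The week 4 CD8 T cells held 5.95% to 7.09%, above all week 2 libraries, and 1 week 3 library reached into their range. The 82 nuclear members summed to 1.79% to 1.95% of TPM in the 3 tumor weeks and to means of 1.37% ± 0.150 at week 2 and 1.69% ± 0.263 at week 4 in CD8 T cells, where the ranges of these weeks overlapped. The week 4 tumor library numbered 3 stood apart, with a mitochondrial sum of 160994 TPM against 98093 to 101040 TPM in the other week 4 tumor libraries.

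**Figure D2:**
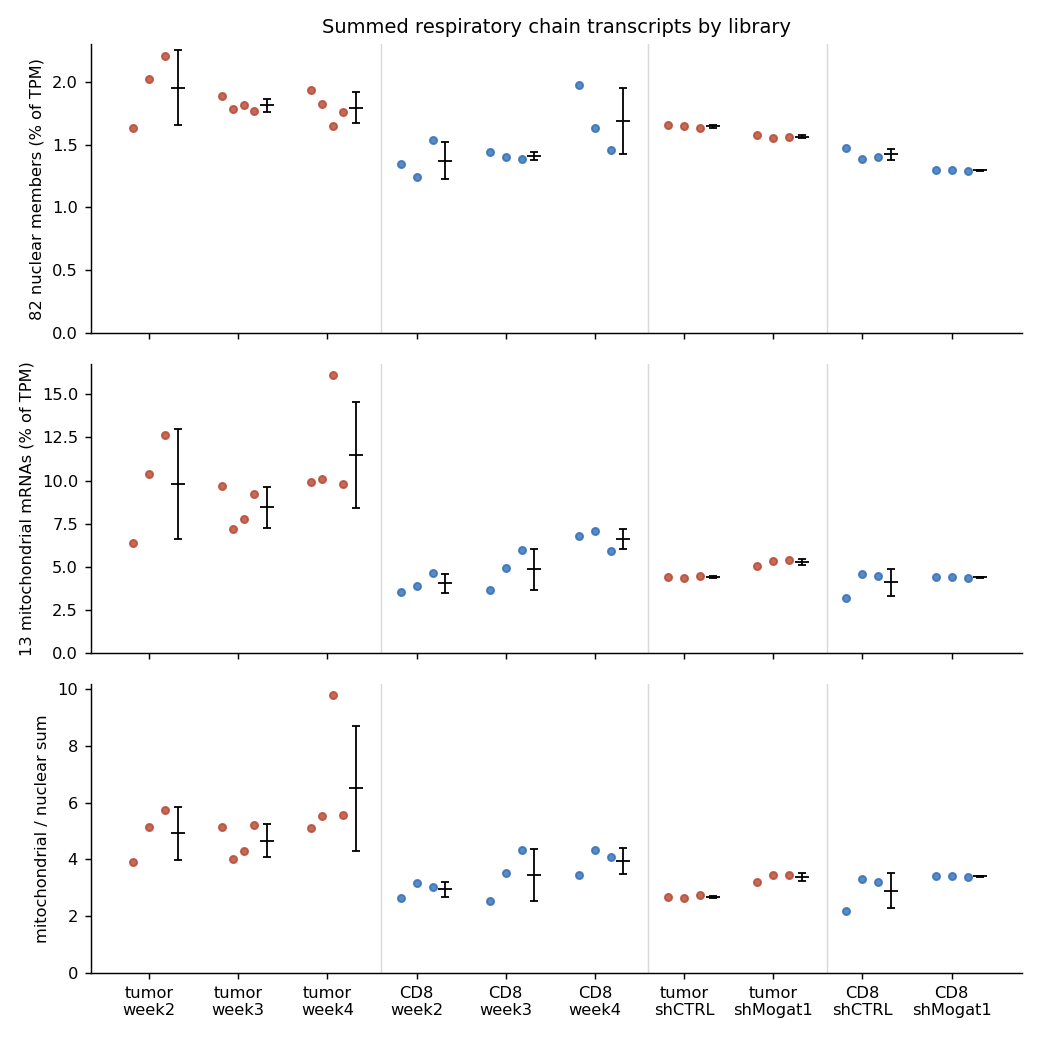
Sums over the 82 nuclear members and the 13 mitochondrial mRNAs as a percent of TPM in each library, and the ratio of the mitochondrial to the nuclear sum; points are libraries and bars the group mean and SD, with grey lines between separately scaled tables. The mitochondrial sum of CD8 T cells goes from a mean of 4.05% at week 2 to 6.61% at week 4, and 1 week 4 tumor library reaches 16.1%.

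In the xenografts the sums of the tumor cells did not overlap between hairpins. The nuclear sum was 1.64% ± 0.0129 of TPM in the shCTRL and 1.56% ± 0.0103 in the tumor libraries labelled shMogat1, while the mitochondrial sum was 4.43% ± 0.0427 and 5.28% ± 0.179 (SD, n = 3 each). The ratio of the mitochondrial to the nuclear sum was 2.69 ± 0.0393 and 3.38 ± 0.134. In CD8 T cells from the xenografts the nuclear sum was 1.42% ± 0.0452 with shCTRL and 1.30% ± 0.00532 with shMogat1, again without overlap. Their mitochondrial sums were 4.11% ± 0.772 and 4.41% ± 0.0315, and the shCTRL library numbered 1 lay lowest at 32249 TPM against 45026 to 46158 TPM in the other 2.

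Other measures moved with the groups. Mogat1 went over the tumor weeks from 1.02 to 3.87 TPM at week 2 to 35.8 to 39.6 TPM at week 4, but in the xenograft tumor cells the 3 libraries labelled shMogat1 held 0.146 to 0.624 TPM and each shCTRL library 0 TPM, which goes against a knockdown. The groups are therefore called by their labels, and each direction below is that of the libraries labelled shMogat1 against those labelled shCTRL. The epithelial marker Epcam was at 249 to 567 TPM in tumor cells of the weeks, at 0.560 to 0.864 TPM in the tumor shCTRL libraries and at 28.4 to 30.8 TPM in the tumor shMogat1 libraries, so the defining marker is near 0 in the tumor control group. Summed over 6 fibroblast markers, tumor shCTRL libraries held 4932 to 4973 TPM and tumor shMogat1 libraries 2630 to 2706 TPM. The fibroblast markers were mixed by limma, with 2 of the 6 higher in tumor shMogat1 libraries and 3 lower. Summed over 8 macrophage markers, tumor shCTRL libraries held 292 to 319 TPM and tumor shMogat1 libraries 607 to 622 TPM, and all 8 were higher. In the CD8 T cells from the xenografts, 6 T cell markers summed to 3674 to 3812 TPM with shCTRL and 3757 to 3800 TPM with shMogat1, with overlap. Sums that did not overlap included 1833 to 1873 and 873 to 927 TPM for fibroblast markers. They also included 92.1 to 98.2 and 213 to 217 TPM for epithelial markers. For B and plasma cell markers they were 65.9 to 74.1 and 133 to 145 TPM. For macrophage markers they were 2071 to 2105 and 2278 to 2399 TPM. By limma, 0 of 6 fibroblast markers were higher with shMogat1 and 5 lower, and 4 of 6 epithelial markers higher and 1 lower. Of 5 B and plasma cell markers 1 was higher and 0 lower, and of 8 macrophage markers 6 were higher and 1 lower. Over the tumor weeks the leukocyte marker Ptprc went from 27.4 to 98.1 TPM at week 2 to 3.13 to 19.2 TPM at week 4, and 5 endothelial markers from a sum of 99.5 to 195 TPM to 19.1 to 30.6 TPM. The 6 epithelial markers went from a sum of 1023 to 1397 TPM to 1865 to 2235 TPM (5 higher and 1 lower by limma), the 6 T cell markers from 52.9 to 176 TPM to 16.0 to 32.1 TPM, and the 5 B and plasma cell markers from 34.3 to 282 TPM to 0.613 to 9.38 TPM, each without overlap. The part of these differences in the results below was not tested. In such bulk samples, fewer cells of a type and less RNA per cell cannot be told apart. TPM keeps no depth, so the depth of each library is unknown.

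Over the tumor weeks, 17 nuclear subunits passed the test, and among those called lower the differences of Sdhb and Cox5a were the largest. Between week 4 and week 2, 4 of the 79 nuclear members tested were higher and 13 were lower (limma on log2(TPM + 1), Benjamini-Hochberg adjusted p under 0.05 over all 14770 genes tested). Of all genes tested, 29.2% were higher and 17.1% lower, 46.3% in either direction, so with all libraries the members' share of calls was below the background and their share of lower calls was near it. The former did not hold without the week 2 library numbered 1, as given below. The median difference of the nuclear members was -0.12 on the log2 scale against 0.11 over all genes tested. Lower calls were 6 of 36 members of complex I, 2 of 4 of complex II, 1 of 9 of complex III, 3 of 14 of complex IV and 1 of 16 of complex V, and 1 member was higher in each complex but II.

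Sdhb, the iron-sulfur subunit of succinate dehydrogenase, fell step by step. It was at 201, 229.9 and 225 TPM in the week 2 tumor libraries, at 159.9, 161, 166 and 145 TPM at week 3 and at 134, 129, 114 and 113 TPM at week 4. No library of one week reached into the range of another. The log2 difference was -0.83 ± 0.09 (SE; limma adjusted p = 5.39e-05) for week 4 against week 2, -0.47 ± 0.09 (adjusted p = 0.00565) for week 3 against week 2 and -0.37 ± 0.08 (adjusted p = 0.0158) for week 4 against week 3. The partner Sdha, the flavoprotein subunit, did not pass the test in these weeks, and the ratio of Sdhb to Sdha went from 2.21 ± 0.633 at week 2 to 1.45 ± 0.0626 and 1.05 ± 0.0873. Weeks 2 and 3 overlapped in this ratio, since the week 2 library numbered 1, at 1.49, lay inside the week 3 range of 1.38 to 1.53. Sdhd, a membrane anchor of the same complex, also fell, by 0.53 on the log2 scale (adjusted p = 0.00353), and its levels of 136, 177 and 175 TPM at week 2 lay above the 94.9 to 123 TPM of week 4.

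Cox5a, a nuclear subunit on the matrix side of complex IV, was the other large decrease and came between weeks 3 and 4. It was at 286, 312 and 354 TPM at week 2, at 306, 263, 289 and 276 TPM at week 3 and at 191, 199, 167 and 189.6 TPM at week 4. The week 4 levels lay below all others. The difference was -0.76 ± 0.10 for week 4 against week 2 (adjusted p = 0.000143) and -0.60 ± 0.09 for week 4 against week 3 (adjusted p = 0.00184). The ratio of Cox5a to its neighbour subunit Cox5b was 0.906 ± 0.117 at week 2 and 0.850 ± 0.0173 at week 3, and had a mean of 0.539 at week 4. Cox4i1, the ubiquitous isoform of the largest nuclear subunit of complex IV, fell by 0.30 on the log2 scale (adjusted p = 0.0261).

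Complex I was led by Ndufb7 and Ndufa13, both accessory subunits. Ndufa13 was at 58.4, 79.9 and 69.0 TPM at week 2 and at 49.5, 45.2, 40.7 and 52.5 TPM at week 4, a difference of -0.54 ± 0.12 (adjusted p = 0.00333). Ndufb7 fell by 0.56 on the log2 scale (adjusted p = 0.00434) and the core iron-sulfur subunit Ndufs7 by 0.47 (adjusted p = 0.00434). Ndufv3, an accessory subunit of the NADH-binding module, went the other way, from 43.8, 48.6 and 56.6 TPM to 67.3, 69.5, 63.7 and 63.6 TPM, a difference of 0.41 (adjusted p = 0.0210). Atp5a1, the alpha subunit of the catalytic head of complex V, rose from 682, 557 and 630.5 TPM to 829, 856, 738 and 790.1 TPM (0.37 ± 0.09, adjusted p = 0.00728), whereas Atp5l, a membrane subunit of complex V, fell by 0.53 (adjusted p = 0.0117). In complex III, the core protein Uqcrc2 fell by 0.28 (adjusted p = 0.0489) and cytochrome c1 (Cyc1) rose by 0.32 (adjusted p = 0.0365), both with overlapping groups.

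The earlier and later steps gave few calls. Between week 3 and week 2, Ndufa7, Ndufa13 and Sdhb were lower and Atp5a1 higher, 4 calls of 79 members beside 24.1% of all genes tested (20.1% higher and 4.01% lower). Between week 4 and week 3, Sdhb and Cox5a were lower and Cox8b higher, 3 calls beside 13.7% of all genes (5.53% higher and 8.19% lower). Scaling by the median of ratios to a reference library, in place of TPM, moved the median of all genes by -0.12 for week 4 against week 2 and by -0.15 for week 3 against week 2. It gave 1 higher and 17 lower nuclear members for week 4 against week 2, and Atp5a1, Cyc1 and Ndufv3 no longer passed (adjusted p = 0.0562, 0.205 and 0.138). Relative to all genes the nuclear median was -0.24 with TPM and -0.26 with that scaling. The week 2 library numbered 1 held the highest Ptprc level (98.1 TPM) and the lowest nuclear sum (16279.7 TPM) of that week. Without it, 49 nuclear members passed for week 4 against week 2, of which 42 were lower, beside 53.1% of all 14626 genes then tested. For week 3 against week 2, 47 passed, of which 41 were lower, beside 39.3% of all genes. The members' share of calls was then above the background in both comparisons. Without the week 2 library numbered 2, 8 passed for week 4 against week 2, beside 36.0% of all genes, and without the week 4 library numbered 2, 11 passed. For week 3 against week 2, 1 or 2 passed without the week 2 library numbered 2 or 3, the week 3 library numbered 2, 3 or 4 or the week 4 library numbered 1. For week 4 against week 3, 10 passed without the week 2 library numbered 1, and 1 without the week 3 library numbered 3 or the week 4 library numbered 3. Sdhb, Sdhd, Cox5a, Ndufa13, Ndufb7 and Ndufs7 passed for week 4 against week 2 in all 19 alternatives run, and Cox8b in the 18 that could test it, since the filter of 5 TPM left it out.

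Few mitochondrial mRNAs of the tumor cells passed the test over the weeks. ND3 was at 10.6, 11.9 and 20.2 TPM at week 2 and at 27.4, 27.4, 30.0 and 25.1 TPM at week 4, without overlap (0.95 ± 0.19, adjusted p = 0.00206). COX2 went from 294, 408 and 561 TPM to 537, 577, 798 and 624 TPM with overlap (0.62 ± 0.23, adjusted p = 0.0481). These were the 2 calls among the 13, both higher and both in mRNAs with a chromosome 1 copy, beside 29.2% of all genes higher and 17.1% lower. Between weeks 4 and 3, ND3 (0.79, limma adjusted p = 0.0134) and COX3 (0.72, adjusted p = 0.0464) passed, beside 5.53% of all genes higher and 8.19% lower. Between weeks 3 and 2 the count was 0 by limma, beside 24.1% of all genes. At an unadjusted p under 0.05 it was also 0, beside 5605 of all 14770 genes. The abundant mRNAs overlapped, as for COX1, the catalytic core of complex IV, which was at 23213, 37826 and 45949 TPM at week 2 and at 37381, 40292, 63466 and 38494 TPM at week 4. The highest of these, 63466 TPM, belonged to the library with the 16.1% mitochondrial share. For week 4 against week 2, leaving out 1 library left 1 to 3 calls. For week 4 against week 3 it left 1 to 4, and for week 3 against week 2, 3 were lower without the week 2 library numbered 1 and 1 was higher without that numbered 3. ND3 kept both calls in every alternative.

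**Figure D3:**
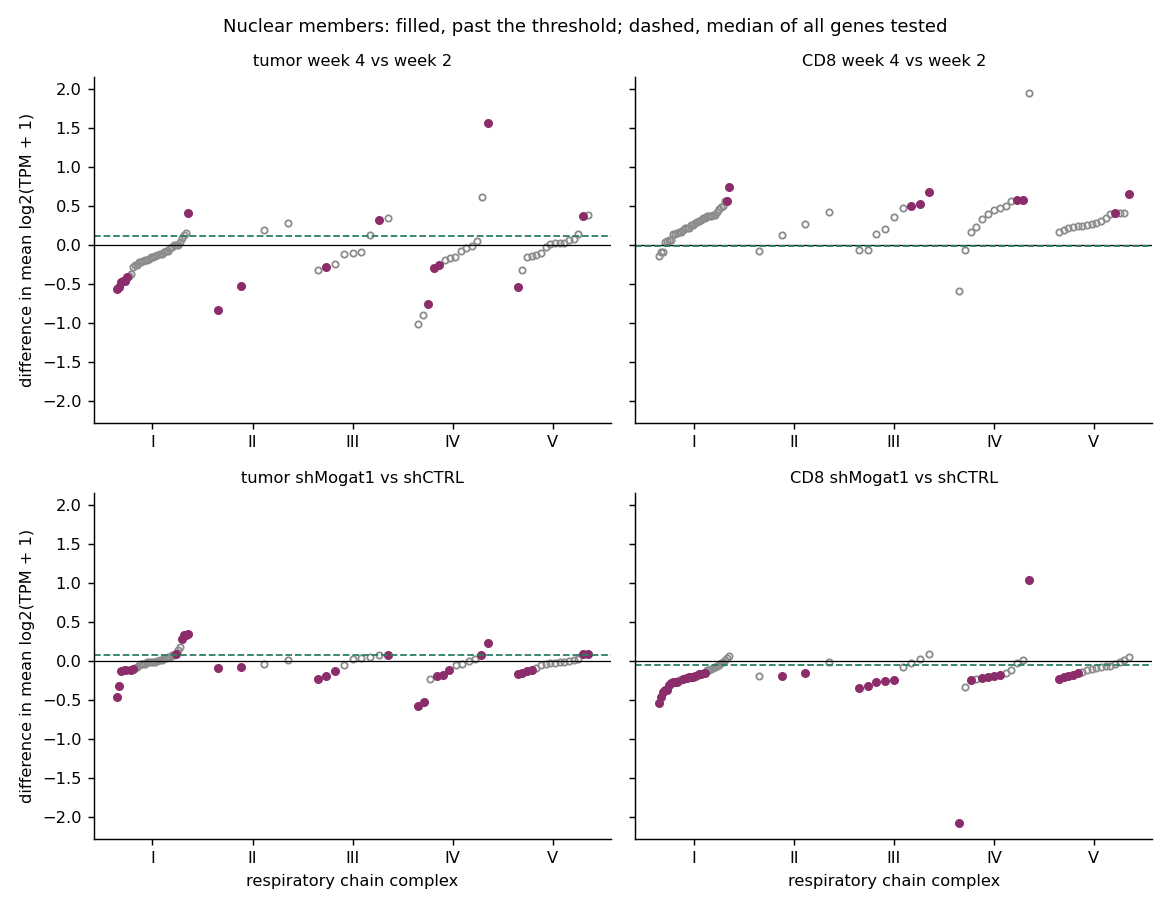
Difference in mean log2(TPM + 1) of each nuclear member tested, sorted within complexes I to V, in 4 comparisons; filled points passed the test, open points did not, and the dashed line is the median of all genes tested. Most CD8 week 4 against week 2 points lie above 0, with 9 filled, and most CD8 shMogat1 against shCTRL points lie below 0, with 37 lower and 1 higher filled.

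In CD8 T cells the called subunits were higher at week 4. Between week 4 and week 2, 9 of 78 nuclear members were higher and 0 lower, and 26 were at an unadjusted p under 0.05 by limma. The share of all genes at that unadjusted threshold is not given here, and the shares that follow are at the adjusted one. Of all 13350 genes tested, 17.5% passed, with 10.3% higher and 7.18% lower, so the members' share of calls was below the background and their share of higher calls near it. The direction was more even than the calls: 70 of 78 members had a positive difference, with a median of 0.29 against -0.01 over all genes. Higher calls were 2 members of complex I (Ndufa12 and Ndufc2), 3 of complex III (Uqcrc2, Uqcr10 and Uqcr11), 2 of complex IV (Cox5b and Cox8a) and 2 of complex V (Atp5f1 and Atp5g2).

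Uqcrc2, a core protein of complex III, had the tightest groups. It was at 116, 114 and 116 TPM at week 2, at 131, 130.4 and 123 TPM at week 3 and at 184, 156 and 150.2 TPM at week 4, so the weeks did not overlap (week 4 against week 2, 0.49 ± 0.10, adjusted p = 0.0118). Ndufc2, an accessory subunit of complex I, had the largest called difference, from 64.7, 64.5 and 84.0 TPM to 157, 111 and 94.2 TPM (0.74 ± 0.19, adjusted p = 0.0287). Cox8a, the ubiquitous isoform of a small complex IV subunit, went from 346, 374 and 442 TPM to 662, 585 and 490.3 TPM (0.58 ± 0.13, adjusted p = 0.0198). Atp5f1, the b subunit of the ATP synthase stalk, went from 194, 167 and 235 TPM to 373, 306 and 258 TPM (0.65 ± 0.16, adjusted p = 0.0260). In each of these members the week 4 library numbered 2 was the highest of the 9.

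Of the 13 mitochondrial mRNAs, 5 were higher and 0 lower between week 4 and week 2, beside 10.3% of all genes higher and 7.18% lower. The other 8 did not pass, the median difference was 0.69, and without the week 4 library numbered 2 or 3 only 1 passed. ND5, a membrane subunit of complex I, was at 2065, 2264 and 2232 TPM at week 2, at 2440.2, 2974 and 3930.0 TPM at week 3 and at 4183, 4214 and 3817 TPM at week 4. The week 2 and week 4 groups stood well apart (0.90 ± 0.16, adjusted p = 0.00769). COX1 went from 12255, 14189 and 16455 TPM at week 2 to 26226, 27457 and 23767 TPM at week 4 (0.86 ± 0.19, adjusted p = 0.0170). CYTB (0.69, adjusted p = 0.0464), ND4 (0.65, adjusted p = 0.0494) and ND4L (1.23, adjusted p = 0.0170) completed the calls. ND6, the only mRNA of the other strand of the mitochondrial genome, did not pass, at 2419, 2630.0 and 3716 TPM and then 3918, 3901 and 3454 TPM.

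**Figure D4:**
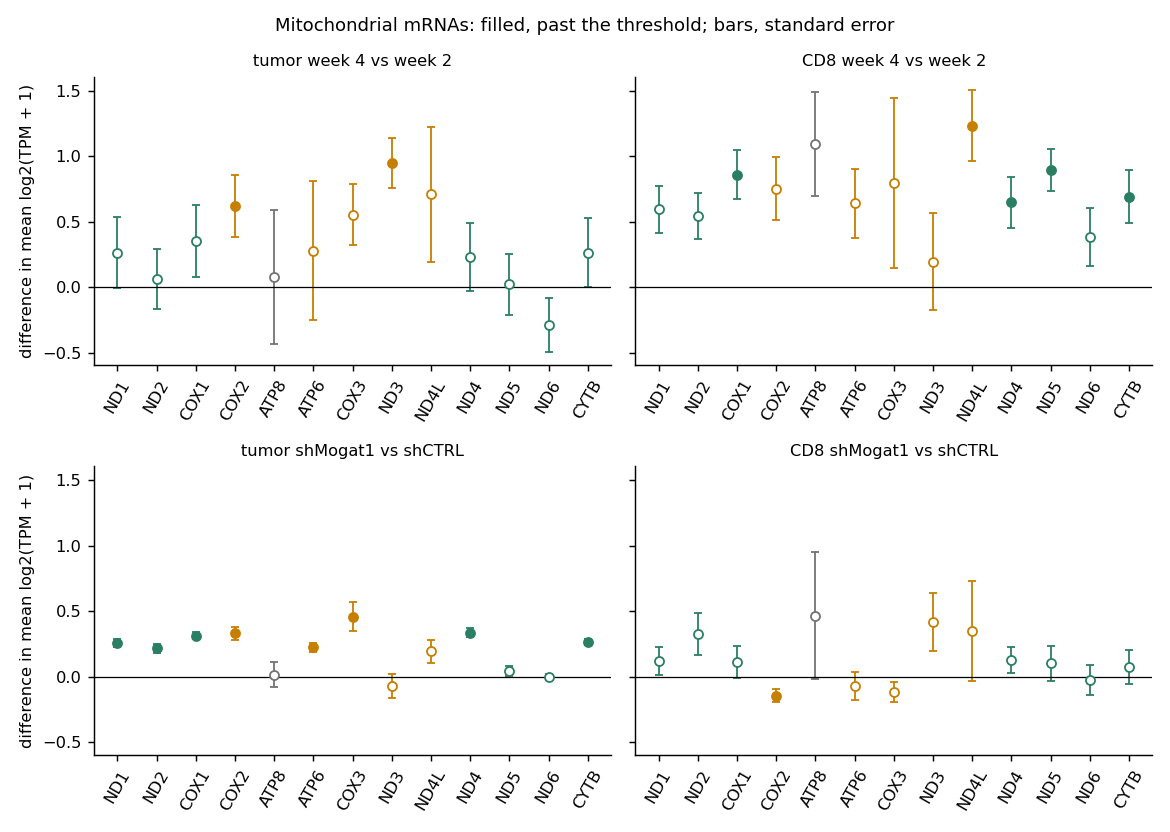
Difference in mean log2(TPM + 1) of each mitochondrial mRNA with its standard error in 4 comparisons; filled points passed the test, and orange marks mRNAs with a near-identical chromosome 1 copy, grey ATP8 and green the others. All 13 points lie above 0 for CD8 week 4 against week 2, with 5 filled, and 8 are filled for tumor shMogat1 against shCTRL.

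The steps within these weeks gave no calls. Week 3 against week 2 gave 0 nuclear and 0 mitochondrial calls by limma, where 0.0449% of all genes passed, with 0 and 1 at an unadjusted p under 0.05. Week 4 against week 3 also gave 0 and 0, where 2.67% of all genes passed, with 18 and 8 at an unadjusted p under 0.05 by limma. For both steps the share of all genes at that unadjusted threshold is not given here, so these counts have no background. In week 4 against week 3, 67 of 78 nuclear members had a positive difference (median 0.27 against -0.13 over all genes). Relative to all genes, the nuclear median of week 4 against week 3 was 0.39 with TPM and 0.41 with median-of-ratios scaling, which moved the median of all genes by 0.12. For week 4 against week 2 the nuclear calls depended on single libraries. Leaving out the week 2 library numbered 1 or 2, or the week 4 library numbered 2 or 3, left 1 call in each case, leaving out any week 3 library left 5, leaving out the week 4 library numbered 4 gave 16, and leaving out the week 2 library numbered 3 gave 24. Mitochondrial calls ran from 1, without the week 4 library numbered 2 or 3, to 8, without that numbered 4, with 2 without the week 2 library numbered 1 or 2 and 3 without the week 3 library numbered 3. Uqcrc2 and ND5 passed in every alternative. Marker sums of other cell types also differed without overlap between these weeks, but few of the single markers passed the test. The 5 endothelial markers summed to 102 to 128 TPM at week 2 and 29.9 to 70.8 TPM at week 4, the 6 fibroblast markers to 97.7 to 667 and 43.8 to 53.8 TPM, the 5 B and plasma cell markers to 17.5 to 126 and 7.48 to 15.2 TPM, and the 6 epithelial markers to 67.9 to 113 and 157 to 240.2 TPM. The 7 muscle markers summed to 35.1 to 40.7 and 16.3 to 29.0 TPM, also without overlap. By limma, 1 of 5 endothelial markers was lower, and 0 of 6 fibroblast and 0 of 5 B and plasma cell markers passed. Of the 6 epithelial markers 1 was higher and 1 lower, and of the 2 muscle markers tested 1 was lower. The T cell markers, at 4567 to 4859 and 4821 to 5477 TPM, overlapped, with 2 of 6 higher. The part of these marker differences in the higher nuclear and mitochondrial levels was not tested.

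Tumor libraries labelled shMogat1 differed from those labelled shCTRL by small differences of nuclear subunits. The calls were mixed with TPM and mostly lower with median-of-ratios scaling. Of the 13 mitochondrial mRNAs, 8 were higher in the libraries labelled shMogat1. Their Mogat1 level goes against the label, so these differences are not assigned to the hairpin. Of 77 nuclear members tested, 10 were higher and 20 lower in the libraries labelled shMogat1, while 54.5% of all 12936 genes tested passed, 34.6% higher and 19.9% lower, so the members' share of calls was below the background. The median difference of the 30 called members was 0.14 in size on the log2 scale, and 28 of them were under 0.5. Groups this tight gave small differences a low p: the SD of log2 differences between replicates was 0.0966 to 0.165 in the xenograft tables and 0.202 to 0.624 in those of the weeks. Calls in complex I were 5 higher and 6 lower, in complex II 0 and 2, in complex III 1 and 3, in complex IV 2 and 5 of 12 tested, and in complex V 2 and 4. With median-of-ratios scaling 5 members were higher and 39 lower, beside 3124 higher and 3758 lower of all genes tested, so the members' share of calls was then no longer below the background. The share of lower calls was then 50.6% of members beside 29.1% of all genes, in place of 26.0% beside 19.9% with TPM.

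Cox4i1 had the largest decrease. It was at 948, 923 and 944 TPM in the shCTRL libraries and at 641, 625 and 617 TPM in the libraries labelled shMogat1, a gap of many times the spread (-0.58 ± 0.02, adjusted p = 2.51e-07). Cox4i1 lies on chromosome 8 (chr8:120668222-120674207, forward strand, GRCm38) and overlaps Emc8 on the other strand, whose own level went from 23.2 to 24.0 TPM to 17.1 to 18.1 TPM. Whether the authors' counting used strand is not given in the sources used here, so reads of the 2 genes in the overlap cannot be told apart. Cox5a, its partner in complex IV, did not pass, and the ratio of Cox5a to Cox4i1 was 0.243 ± 0.00623 with shCTRL and 0.354 ± 0.00693 with shMogat1.

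Within complex I the 2 directions stood beside each other. Ndufa13 fell from 62.3, 59.3 and 62.3 TPM to 44.8, 44.3 and 43.7 TPM (-0.46 ± 0.03, adjusted p = 9.83e-06), and Ndufb7 fell by 0.31 (adjusted p = 0.000105). Ndufb8, another accessory subunit, rose from a mean of 83.3 ± 2.31 TPM to 106 ± 0.886 TPM (SD, n = 3 each) (0.34 ± 0.03, adjusted p = 2.18e-05). Ndufv3 rose from 38.6, 40.3 and 39.3 TPM to 49.7, 49.9 and 50.7 TPM (0.34, adjusted p = 4.38e-05), Ndufs8, a core iron-sulfur subunit, by 0.34 (adjusted p = 6.83e-05) and Ndufv1, which binds NADH and FMN, by 0.28 (adjusted p = 0.000751). Among the other complexes, the hinge protein Uqcrh fell by 0.23 (adjusted p = 0.000252), Atp5a1 fell by 0.16 (adjusted p = 0.000112) and Cox8a rose by 0.23 (adjusted p = 0.000949). In none of these 9 members did the groups overlap.

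**Figure D5:**
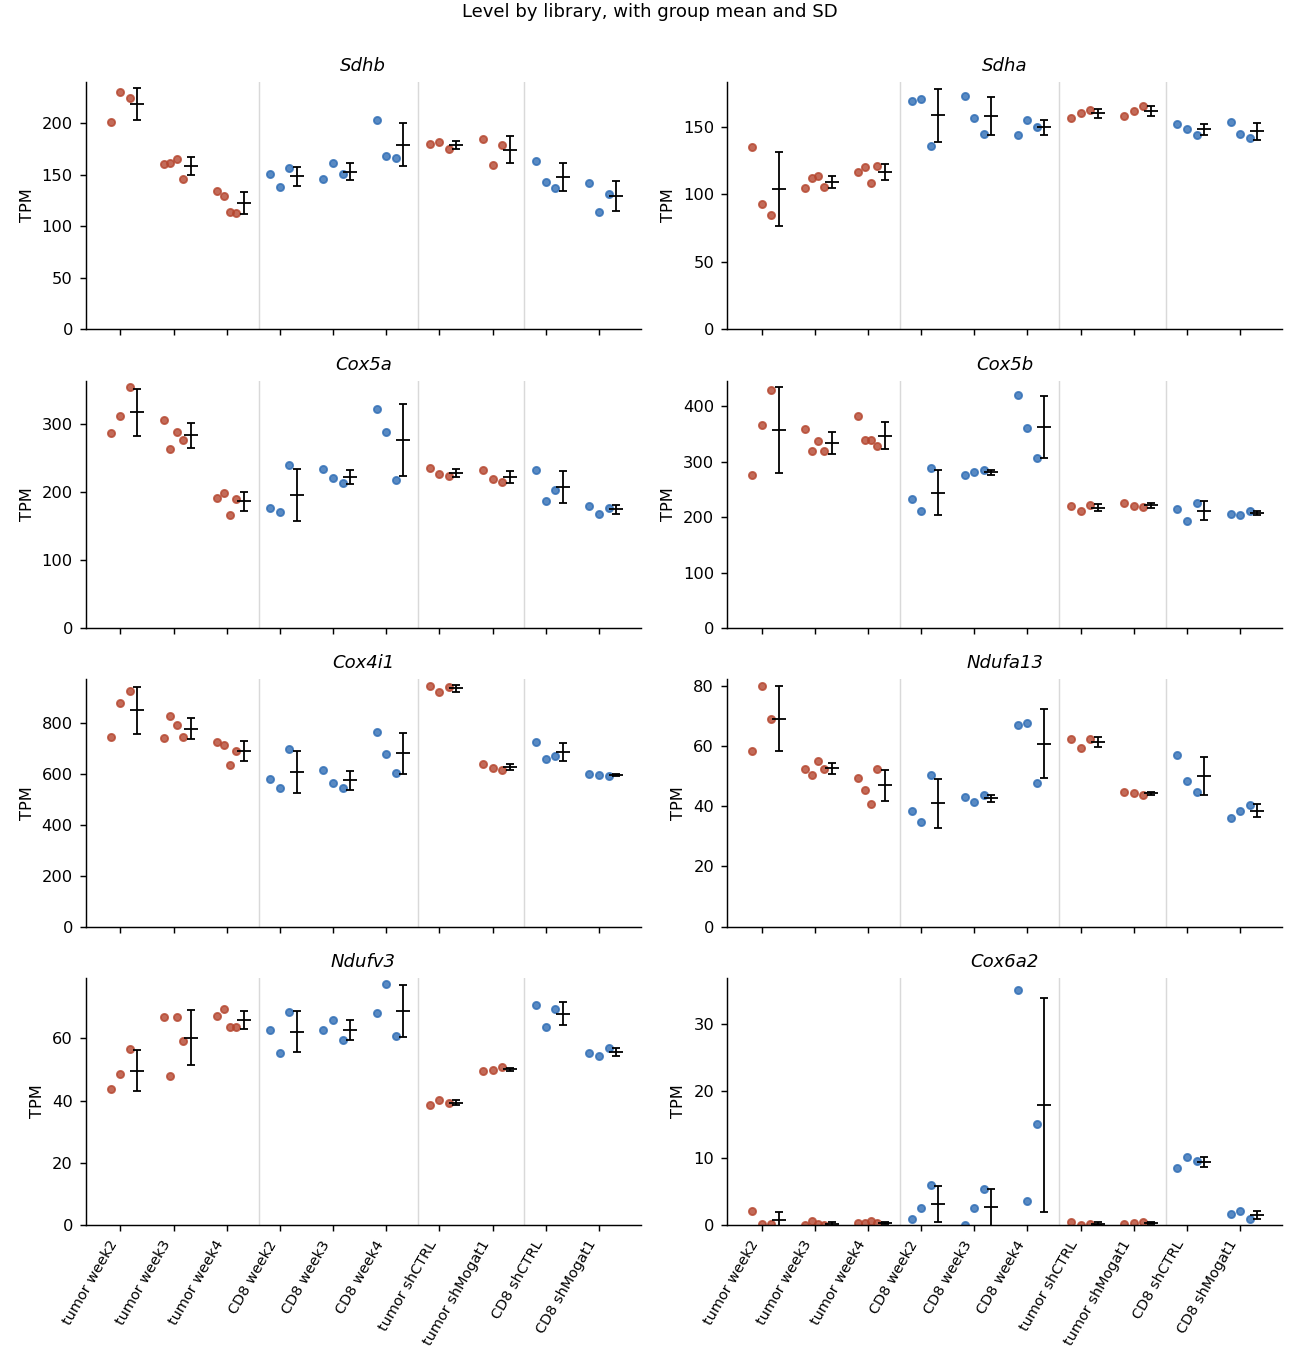
Level in TPM of 8 nuclear members in every library, on axes that start at 0; points are libraries (red, tumor cells; blue, CD8 T cells), bars the group mean and SD, and grey lines part separately scaled tables. Sdhb and Cox5a descend over the tumor weeks while Sdha and Cox5b do not, Cox4i1 and Ndufa13 are lower in tumor shMogat1 than shCTRL libraries, and Cox6a2 is lower in CD8 shMogat1 than shCTRL libraries.

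Of the 13 mitochondrial mRNAs of the tumor cells, 8 were higher in the libraries labelled shMogat1 and 0 lower (8 and 1 with median-of-ratios scaling). Of all genes tested, 34.6% were higher and 19.9% lower (24.1% and 29.1% with median-of-ratios scaling). COX1 was at 15103, 15038 and 15557 TPM in the shCTRL and at 18367, 19196 and 19291 TPM in the libraries labelled shMogat1 (0.31 ± 0.02, adjusted p = 1.50e-05). ND1, ND2, ND4, CYTB, COX2, COX3 and ATP6 rose by 0.22 to 0.46. ND5 and ND6, which overlap at their ends on opposite strands of the mitochondrial genome, did not pass, with differences of 0.04 and -0.00. ND5 was at 2833, 2885 and 2935 TPM and then 2793, 3006 and 3123 TPM, so the ratio of ND5 to COX1 was 0.189 ± 0.00221 with shCTRL and 0.157 ± 0.00490 with shMogat1, without overlap. ND3, ND4L and ATP8 did not pass either. With quantile normalization, which sets the top-ranked row equal in every library, the COX1 difference was 0. In the tumor libraries labelled shMogat1 the epithelial marker sum was 937 to 977 TPM against 201 to 217 TPM in shCTRL, and its part in the mitochondrial difference was not tested.

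In CD8 T cells from the xenografts nearly all called nuclear subunits were lower. Of 78 tested, 37 were lower with shMogat1 and 1 higher, where 42.8% of all 13742 genes tested passed, 16.6% higher and 26.2% lower. The members' share of lower calls thus stood above the background with TPM. The marker sums of fibroblasts, epithelium, B and plasma cells and macrophages given above differ between the same libraries, and their part in these calls was not tested. Lower calls were 19 members of complex I, 2 of complex II, 5 of complex III, 6 of 13 tested of complex IV and 5 of complex V. The median difference was -0.17 against -0.05 over all genes, and 35 of the 38 calls were under 0.5 in size. With median-of-ratios scaling 21 were lower and 2 higher. The share of lower calls was then 26.9% of members beside 21.7% of all genes, in place of 47.4% beside 26.2% with TPM. Relative to all genes the median was -0.12 under both scalings.

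Uqcrb, a ubiquinone-binding subunit of complex III, was at 215, 206 and 203 TPM with shCTRL and at 166, 173 and 160.3 TPM with shMogat1 (-0.32 ± 0.04, adjusted p = 0.000429). Ndufs6, an accessory subunit of complex I, was at 96.9, 87.5 and 88.8 TPM and then 63.6, 72.2 and 62.7 TPM (-0.46 ± 0.06, adjusted p = 0.000961). Ndufc1 had the largest difference in complex I, from 93.9, 67.7 and 79.5 TPM to 61.5, 45.2 and 59.2 TPM (-0.53 ± 0.14, adjusted p = 0.0183). In these members the groups did not overlap. Ndufa13 fell by 0.37 (adjusted p = 0.0106), Cox4i1 by 0.20 (adjusted p = 0.00479), Sdhd by 0.19 (adjusted p = 0.0168) and Atp5e, a small subunit of the central stalk, by 0.23 (adjusted p = 0.00932). Calls ran from 29 to 37 when single libraries were left out.

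Both large changes in these cells were in muscle-type isoforms of complex IV, at low levels. Cox6a2, the isoform found in heart and skeletal muscle, was at 8.58, 10.2 and 9.57 TPM with shCTRL and at 1.61, 2.11 and 0.865 TPM with shMogat1 (-2.07 ± 0.18 on the log2(TPM + 1) scale, adjusted p = 8.24e-05). Cox7a1, the muscle isoform of another subunit, was at 2.93, 2.15 and 1.39 TPM and then 4.59, 4.87 and 6.75 TPM (1.04 ± 0.20, adjusted p = 0.00481). The isoforms moved in opposite directions, and their ubiquitous counterparts Cox6a1 (238 to 358 TPM with shCTRL, 221 to 246 TPM with shMogat1) and Cox7a2 (193 to 208 and 166 to 196 TPM) did not pass. The 7 muscle markers summed to 23.3 to 28.6 TPM with shCTRL and 27.4 to 29.9 TPM with shMogat1, overlapping. Cox6a2 lies inside the span of Itgad on the other strand of chromosome 7 (chr7:128205435-128206387), and Itgad was at 1.51 to 1.73 TPM and then 1.38 to 1.49 TPM. In CD8 T cells of the weeks Cox6a2 varied from 0 to 35.2 TPM, with the 3 week 4 libraries at 35.2, 3.61 and 15.1 TPM, and did not pass.

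Of the mitochondrial mRNAs in these cells, beside 16.6% of all genes higher and 26.2% lower, COX2 alone passed, lower with shMogat1. It was at 288, 310.0 and 331 TPM with shCTRL and at 285, 274 and 281 TPM with shMogat1 (-0.14 ± 0.05, adjusted p = 0.0490), and this call was lost in 4 alternatives and without the shCTRL library numbered 4 or any shMogat1 library. The shCTRL library numbered 1 was low in most mitochondrial mRNAs, as for COX1 (12101 TPM against 17062 and 16977 TPM) and ATP8 (36.5 TPM against 144 and 154 TPM). Without it, 7 mRNAs passed, 6 of them lower with shMogat1. The direction of the mitochondrial mRNAs in this comparison thus rests on that library: the median difference was 0.11 with it and -0.10 without it.

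Across week 4 against week 2 in both cell types and the hairpin comparisons, 22 of the 95 members passed in 0 comparisons, 44 in 1, 22 in 2, 6 in 3 and 1 in 4. Of all genes tested, 46.3% passed over the tumor weeks and 17.5% over the CD8 weeks. In the hairpin comparisons 54.5% passed in tumor cells and 42.8% in CD8 T cells. Repeats were not counted over all genes, so those of the members are not read as a trait of the chain. The member called in all 4 was Cox8a, lower in tumor cells over the weeks, higher in CD8 T cells over the weeks, higher in tumor cells labelled shMogat1 and lower in CD8 T cells labelled shMogat1. Those called in 3 were Cox4i1, Ndufa13, Ndufv3, Sdhd, Uqcrc2 and COX2. Cox4i1, Ndufa13 and Sdhd were lower in each of theirs (tumor weeks and both hairpin comparisons). Ndufv3 was higher in tumor cells in both and lower in CD8 T cells labelled shMogat1.

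Tissue-restricted isoforms were low throughout. The 8 nuclear members under 20 TPM in every group mean were Atp5s, Cox4i2, Cox6a2, Cox6b2, Cox7a1, Cox7b2, Cox8b and Cox8c, while the lowest value of the other 74 in any library was 14.0 TPM (Ndufa11). Cox7b2 was listed at 0 in all 32 libraries. Cox8b, the muscle and brown fat isoform of Cox8, was listed at 0 in all 3 week 2 tumor libraries, at 0, 0.547, 0 and 1.29 TPM at week 3 and at 1.91, 1.94, 2.64 and 1.43 TPM at week 4 (adjusted p = 0.00124 for week 4 against week 2), without overlap of week 4 with the others. The 4 brown adipocyte markers summed to 1.99 to 3.67 TPM at week 2 and to 6.75 TPM or more at week 4, and the 1 of them tested, Cidea, was higher (1.87, adjusted p = 0.000104). Their part in the Cox8b difference was not tested. Atp5g1, Atp5g2 and Atp5g3 encode the same mature c subunit of the ATP synthase ring. Atp5g3 gave the largest share of their summed TPM in every group, 57.1% ± 3.78 in week 2 tumor cells and 51.8% ± 0.960 in week 2 CD8 T cells. Atp5g2 gave 27.8% ± 2.62 in the former and 36.2% ± 1.67 in the latter, and 37.2% ± 0.334 in tumor shCTRL cells, so the tumor cells of the 2 experiments differed in this share as much as the cell types did.

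Tumor cells and CD8 T cells were in separately scaled tables, so their levels are set side by side without a test. The same counts were not made over all genes, so those below have no background and are not read as a trait of the chain. At week 2, 36 of 82 nuclear members lay above the CD8 range in all tumor libraries, 5 lay below it and 41 overlapped. At week 4 these were 24, 12 and 46, and in the shCTRL xenografts 44, 15 and 23. In all 3 pairs 14 members were above in tumor cells, among them Uqcr11 (237 ± 51.5 against 62.9 ± 11.4 TPM at week 2), Ndufc2 (207 ± 48.6 against 71.0 ± 11.2 TPM) and Uqcrb (366 ± 96.2 against 155 ± 34.3 TPM). Another 3, Uqcrh, Ndufa6 and Cox6b2, were above in CD8 T cells, with Uqcrh at 453 ± 81.7 TPM in tumor cells and 627 ± 80.3 TPM in CD8 T cells at week 2. Of the 13 mitochondrial mRNAs, 8 were above in tumor cells at week 2 and 8 at week 4, but 1 in the shCTRL xenografts. There, COX1 stood at 15233 ± 283 TPM in tumor cells and 15379.9 ± 2840 TPM in CD8 T cells.

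Promoters of the nuclear members were read for motifs of 2 factors known to act on respiratory genes, NRF1 and the ETS factors that include GABPA. RefSeq promoters (GRCm38.p6, 250 bases before to 50 after the start) matched 67 of the 82 nuclear members. The core of the NRF1 site, GCATGCGC, on either strand, stood in 10 of 67 members (14.9%) and in 3.05% of 27025 genes. The full site, which is this core with GC before it, stood in 5 members (7.46%) and in 1.07% of genes. The ETS site CCGGAAGT stood in 5 members (7.46%) and in 4.31% of genes. The promoters of Uqcr11 (chr10:80406772-80407071, reverse strand), with an ETS site and an NRF1 core, and of Atp5g2 (chr15:102670998-102671297, reverse strand), with the full NRF1 site, are shown with the sites in capitals, since both genes were higher at week 4 in CD8 T cells.
Uqcr11: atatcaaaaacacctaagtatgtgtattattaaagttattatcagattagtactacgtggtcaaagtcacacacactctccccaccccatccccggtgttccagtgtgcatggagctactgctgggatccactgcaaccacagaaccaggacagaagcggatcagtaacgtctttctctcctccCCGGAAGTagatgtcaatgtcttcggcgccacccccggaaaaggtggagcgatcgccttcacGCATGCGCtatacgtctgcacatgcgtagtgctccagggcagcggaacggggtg
Atp5g2: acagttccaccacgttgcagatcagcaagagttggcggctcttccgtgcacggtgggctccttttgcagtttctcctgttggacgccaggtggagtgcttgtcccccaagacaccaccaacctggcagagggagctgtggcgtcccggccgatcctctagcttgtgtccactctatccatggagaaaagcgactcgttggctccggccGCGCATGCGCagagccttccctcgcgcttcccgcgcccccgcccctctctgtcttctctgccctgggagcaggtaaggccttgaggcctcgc

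Calls are set beside the motif as a description. Of the 10 members with the NRF1 core, 2 were higher in CD8 T cells between weeks 2 and 4 and 3 were lower in CD8 T cells labelled shMogat1. Of the 57 other members with a RefSeq promoter, 6 were higher in the first comparison and 25 lower in the second. The shares of all genes were 10.3% higher and 26.2% lower. In tumor cells between weeks 2 and 4, 0 of the 10 were higher and 2 lower, and 2 and 9 of the 57. The shares of all genes were 29.2% and 17.1%. In tumor cells labelled shMogat1 these counts were 1 and 2 of the 10 and 9 and 12 of the 57, beside 34.6% and 19.9% of all genes.

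Genes that act around the chain are given by their counts, beside the shares of all genes. These were 29.2% higher and 17.1% lower over the tumor weeks, 10.3% and 7.18% over the CD8 weeks, 34.6% and 19.9% in tumor cells labelled shMogat1 and 26.2% lower and 16.6% higher in CD8 T cells labelled shMogat1. Of 46 tested assembly factors, which build the complexes, 9 were higher and 9 lower between weeks 4 and 2 in tumor cells, 3 and 1 in CD8 T cells, 17 and 3 of 45 in tumor cells labelled shMogat1, and 1 and 10 in CD8 T cells labelled shMogat1. With median-of-ratios scaling these counts were 6 and 12, 3 and 2, 8 and 7, and 3 and 5. In tumor cells labelled shMogat1 the share of higher calls, 37.8%, was near the background. Cmc2, a copper-related complex IV assembly factor, was among the lower ones in tumor cells over the weeks (-1.42, adjusted p = 3.35e-05) and in both hairpin comparisons (-1.16 in tumor cells and -0.80 in CD8 T cells). Of 77 mitochondrial ribosomal proteins, which make the 13 mitochondrial subunits, 11 were higher and 14 lower over the tumor weeks (6 and 23 with median-of-ratios scaling), 3 and 0 over the CD8 weeks, 19 and 3 in tumor cells labelled shMogat1 (11 and 15 with median-of-ratios scaling), and 1 and 26 in CD8 T cells labelled shMogat1 (4 and 19).

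Of 21 genes of mitochondrial DNA expression, 9 were higher and 2 lower over the tumor weeks (5 and 2 with median-of-ratios scaling, 4 and 2 with quantile scaling), the largest difference being that of the helicase Twinkle, listed as Peo1 (1.11). Over the CD8 weeks, in which 5 mitochondrial mRNAs rose, 0 of 21 were higher and 3 were lower: the mitochondrial RNA polymerase Polrmt (-0.78, adjusted p = 0.0494), Fastkd3 (-0.73) and the packaging and transcription factor Tfam (-0.43, adjusted p = 0.0151). In libraries labelled shMogat1 the counts were 4 and 0 in tumor cells (2 and 0 with median-of-ratios scaling) and 2 and 3 in CD8 T cells (6 and 3). Among 9 transcriptional regulators, Ppargc1a (0.75), Esrra (0.53) and Yy1 (0.45) were higher over the tumor weeks, and 0 of 8 tested passed over the CD8 weeks. In libraries labelled shMogat1 Myc fell by 0.43 on the log2 scale in CD8 T cells, where Yy1, Nrf1 and Pprc1 rose, and Esrra rose by 0.47 in tumor cells, where Hif1a and Gabpa fell. Of 15 genes of the TCA cycle and pyruvate dehydrogenase, 3 were higher and 1 lower over the tumor weeks, 2 and 0 over the CD8 weeks, and 4 and 7 in tumor and 1 and 3 in CD8 T cells labelled shMogat1. With median-of-ratios scaling they were 2 and 2, 2 and 0, 2 and 9, and 1 and 1. Cycs, the electron carrier between complexes III and IV, fell by 0.84 on the log2 scale over the tumor weeks (adjusted p = 0.000631), and Atpif1, the inhibitor of ATP synthase reversal, rose by 0.84 over the CD8 weeks and fell by 0.58 in CD8 T cells labelled shMogat1.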

How the data were processed

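Levels were deposited by the authors as TPM in 4 tables, 1 for each cell type and experiment, of 33681 rows each. Per the submitters' processing notes, reads were handled with FastQC, Trim Galore and HISAT2 on mm10, and per the labels' protocols the libraries were stranded mRNA libraries of total RNA. The counting tool, its use of strand and its treatment of reads that map to several places are not given in the sources used here. Gene names turned into dates took up 27 rows per file, which were left out. TPM values were tested as log2(TPM + 1) in limma 3.58.1 (R 4.3.3; lmFit and eBayes with a trend), with all groups of a table in 1 fit, over genes at 1 TPM or more in at least 3 libraries, and p-values were adjusted by Benjamini-Hochberg over all of them (threshold 0.05). The test was tried on simulated data. Tables were scaled separately, so nothing was tested across them.

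The members and gene lists were chosen with earlier results of these data known. Named members were the 13 mitochondrial mRNAs, core subunits, isoform pairs and, in each comparison and complex, up to 3 called members per direction with the largest difference. Copies were searched in GENCODE M21 transcripts with blastn 2.17.0. Alternatives were another pseudocount (0.1), no filter, a filter of 5 TPM, median-of-ratios and quantile scaling, leaving out the mitochondrial rows, a fit of the 2 groups alone, a replicate block and leaving out each library.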

Additional observations from a re-analysis of the deposited data

Results flagged for a closer look

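The week 4 tumor library numbered 3 lay far above the other 3 libraries of its group in 9 of the 96 values tested this way in groups of 4, where chance picks about 1 in 20. These were ATP6 (879 TPM), COX1 (63466 TPM), CYTB (35170.3 TPM), ND1 (27101 TPM), ND2 (10814 TPM), ND4 (11289.8 TPM), ND4L (279.6 TPM), the mitochondrial sum (160994 TPM) and the ratio of the mitochondrial to the nuclear sum (9.78). The nearest other library was at 315 TPM for ATP6, 40292 TPM for COX1 and 68.9 TPM for ND4L, and the values share 1 library. The same library held the lowest Ptprc level of the tumor weeks, 3.13 TPM.

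For 6 members all libraries labelled shMogat1 lay above all those labelled shCTRL in tumor cells and below them in CD8 T cells, with both differences past the threshold, and the difference between the cell types was not tested. Of all genes tested, 34.6% were higher in tumor cells and 26.2% lower in CD8 T cells labelled shMogat1. How many of all genes met the same rule was not counted. The log2 differences were 0.23 in tumor cells and -0.20 in CD8 T cells for Cox8a, 0.094 and -0.53 for Ndufc1, 0.34 and -0.15 for Ndufs8, 0.28 and -0.21 for Ndufv1, 0.34 and -0.28 for Ndufv3, and 0.33 and -0.14 for COX2. Of these, Ndufc1 had no call in tumor cells under median-of-ratios scaling (adjusted p = 0.915), and Ndufs8, Ndufv1 and COX2 had none in CD8 T cells (adjusted p = 0.105, 0.0577 and 0.147).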

How the results depend on the processing

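The number of called nuclear members moved most in the weeks. For tumor week 4 against week 2 (17 calls) it was 11 with no filter and 11 with the replicate block, and 8 to 49 when 1 library was left out. For week 3 against week 2 (4 calls) it was 1 with no filter, 8 with median-of-ratios scaling, 1 with the 2 groups alone, 1 with the block, and 1 to 47 without 1 library. For week 4 against week 3 (3 calls) it was 13 with the 2 groups alone and 1 to 10 without 1 library. For CD8 week 4 against week 2 (9 calls) it was 2 with no filter, 5 with median-of-ratios scaling, 1 with the 2 groups alone, 2 with the block, and 1 to 24 without 1 library. In libraries labelled shMogat1 it was 22 to 27 in tumor cells (30 calls) and 29 to 37 in CD8 T cells (38 calls) without 1 library, and 23 in CD8 T cells with median-of-ratios scaling. The CD8 steps to and from week 3 gave 0 nuclear calls under each leave-one-out fit.

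Mitochondrial calls for tumor week 4 against week 2 (2) were 1 with no filter, 1 with median-of-ratios scaling, 1 with the 2 groups alone and 1 to 3 without 1 library. For week 4 against week 3 (2) they were 1 with no filter, 4 with the 2 groups alone and 1 to 4 without 1 library, and for week 3 against week 2 0 to 3. For CD8 week 4 against week 2 (5) they were 2 with no filter, 3 with median-of-ratios scaling and 1 to 8 without 1 library. For CD8 week 3 against week 2 they were 0 to 0 and for week 4 against week 3 0 to 1. In libraries labelled shMogat1 they were 8 to 9 in tumor cells and 0 to 7 in CD8 T cells without 1 library, and in CD8 T cells 0 with a pseudocount of 0.1, with no filter, with median-of-ratios scaling and with the block. Among named members, COX1 in tumor cells labelled shMogat1 had a difference of 0 under quantile normalization by construction. The cause of the other shifts was not tested.

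Deviations of same-numbered libraries from their group means had correlations from -0.263 to 0.426 over the 4 tables, and those of other pairs from -0.435 to 0.454. With 2 to 10 same-numbered pairs per table this cannot tell whether the numbers pair libraries. Tumor and CD8 libraries of the same number were not compared. The block is given as an alternative only. TPM hides the depth, so what depth limits here is unknown.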
